A study of Mus musculus with 10 samples.

Results

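Protein kinase C (PKC) isoforms are serine/threonine kinases that fall into conventional (cPKC), calcium-independent but diacylglycerol-dependent (nPKC) and atypical (aPKC) classes. The genes described here are those whose Ensembl ID in the deposited table of normalized counts carries the symbol Prkca or Prkcb (cPKC), Prkcd, Prkce, Prkch or Prkcq (nPKC), or Prkci or Prkcz (aPKC). Of these 8 genes, 7 had a row among the 16154 genes of the table and 6 reached the level needed for testing. Prkcq is not analysed here, and Prkcb was too low to enter the test.

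Conventional isoforms are switched on by calcium together with diacylglycerol, nPKC isoforms by diacylglycerol without calcium, and atypical isoforms by neither, being steered instead by protein partners of the cell polarity complex. In alveolar epithelial cells PKC zeta, the product of Prkcz, is known for phosphorylating the alpha subunit of Na,K-ATPase during hypoxia, after which the pump is taken up from the plasma membrane. HOIL-1L, the product of Rbck1, is a subunit of the ubiquitin ligase that builds linear chains, and the series title names degradation of PKC zeta mediated by it. That step acts on the protein, and the measurements here are of messenger RNA alone.

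The RNA came from alveolar type II (AT2) cells sorted from lungs of mice of strain C57BL/6, aged 8 to 10 weeks. The 5 knockout libraries (replicates 1 to 5) are labelled HOIL-1L -/- by genotype, whereas the design text gives them a floxed HOIL-1L allele with Cre driven by the surfactant protein C promoter, a driver of AT2 cells. The 5 wild type libraries (replicates 2 to 6) carry no further allele or agent in the labels. All titles hold the letter N, which is not explained and was not read as an oxygen level. The titles hold a separate number after the letter M for each library, read here as a mouse number. The lower numbers form a first run (knockout 1 to 3 and wild type 2 and 3). The higher numbers form a second run (knockout 4 and 5 and wild type 4 to 6). No label calls these runs a batch. Depth was put at roughly 7.69 to 13.5 M reads. This is an estimate from the column totals that takes the lowest values of each library as single reads. Levels are given as normalized counts per M, that is, divided by the mean column total of 7.14 M. All 10 AT2 markers examined passed the filter in sum at 183824 to 211483 per M in knockout and 184444 to 220531 per M in wild type. The 6 markers of ciliated and club cells also passed, summing to 5023 to 9047 per M in knockout and 4702 to 9305 per M in wild type. So did the 8 markers of alveolar type I cells, summing to 2206 to 2629 per M in knockout and 2228 to 2855 per M in wild type.

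Rbck1, the targeted gene, stood at 59.3, 29.8, 36.4, 38.0 and 38.8 per M in knockout 1 to 5 and at 29.7, 56.7, 57.8, 56.1 and 56.6 per M in wild type 2 to 6. The library labelled knockout 1 therefore lay at the level of wild type 3 to 6, and the library labelled wild type 2 at that of the lowest knockout libraries. As labelled the groups overlapped (p = 0.206 in a two-sided exact permutation test, which can go no lower than 0.00794). The genotype comparison of the isoforms and of the gene lists is accordingly given with all 10 libraries as labelled and with the 8 that remain without these 2, a choice made after the data were seen.

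To place the genes, the 250 bases before a RefSeq start are shown for both aPKC genes and for Prkcb, the lowest measured isoform. They are shown because the series title names HIF, whose sites hold the letters ACGTG or GCGTG. Sequences run 5′ to 3′ on the gene's own strand and come from RefSeq, build GRCm38.p6. Capitals mark these motifs and the GC box, GGGCGG, on either strand.
Prkcz: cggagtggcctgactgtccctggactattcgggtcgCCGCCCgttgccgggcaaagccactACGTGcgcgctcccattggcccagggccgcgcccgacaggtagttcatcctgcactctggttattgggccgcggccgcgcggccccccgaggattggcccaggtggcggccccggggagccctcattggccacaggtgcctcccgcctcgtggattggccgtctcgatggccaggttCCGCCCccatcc
Prkci: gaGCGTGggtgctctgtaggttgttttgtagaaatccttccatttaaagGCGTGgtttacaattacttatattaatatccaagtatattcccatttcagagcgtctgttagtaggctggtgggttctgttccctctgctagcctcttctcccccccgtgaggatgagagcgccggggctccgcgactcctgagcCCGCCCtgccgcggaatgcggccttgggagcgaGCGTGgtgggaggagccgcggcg
Prkcb: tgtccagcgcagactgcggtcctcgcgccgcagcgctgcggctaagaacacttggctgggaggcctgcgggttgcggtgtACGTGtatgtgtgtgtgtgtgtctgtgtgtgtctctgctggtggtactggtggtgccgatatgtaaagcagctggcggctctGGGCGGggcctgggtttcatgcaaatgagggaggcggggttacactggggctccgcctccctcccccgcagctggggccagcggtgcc
These windows lie at chr4:155361429-155361678 (minus strand), chr3:30995521-30995770 (plus strand) and chr7:122288875-122289124 (plus strand). The Prkcz window held 1 ACGTG and 2 GC boxes, the Prkci window 3 GCGTG and 1 GC box, and the Prkcb window 1 ACGTG and 1 GC box. Among 32851 RefSeq windows of the same length, 38.6% held ACGTG or GCGTG and 32.7% held GGGCGG, so the letters are common. The GC content was 70.8% for Prkcz, 56.4% for Prkci and 65.2% for Prkcb, against a median of 52.4% over all windows, and CpG pairs numbered 25, 17 and 17, against a median of 6. Prkci and Prkcb, the highest and the lowest measured isoform, had the same number of CpG pairs. Windows of the other measured isoforms, not shown here, held 39 for Prkca and 18 and 1 for Prkcd, and none was available for Prkce or Prkch. A link between CpG pairs and level was not tested. Prkcz has 2 further RefSeq starts inside the gene, whose windows held 2 and 0 of the ACGTG or GCGTG matches. The gene-level values do not separate transcripts from these starts.

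Of the PKC isoforms, the sorted AT2 samples held mainly the RNA of 3, Prkci, Prkcz and Prkcd. Which cells in the samples carry it was not tested. Because long genes collect more reads, isoforms were compared only per kb of merged exon. On that scale Prkci averaged 21.9 ± 2.37, Prkcz 13.1 ± 0.862, Prkcd 11.2 ± 0.997, Prkca 1.93 ± 0.220, Prkce 1.75 ± 0.278 and Prkch 0.256 ± 0.0958 normalized counts per M per kb (SD, n = 10 libraries of both groups). Prkci was above Prkcz in 10 of 10 libraries, and their ranges did not overlap. Prkcz was above Prkcd in 9 of 10 libraries, with knockout 4 the exception, and their ranges overlapped. Prkca and Prkce were likewise neighbours that did not differ beyond their spread, Prkca being the higher in 7 of 10 libraries. Prkce was above Prkch, and Prkch above Prkcb, in all 10.

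The order among the top 3 depended on which length was used. Per kb of the longest coding transcript, a length chosen after the data were seen, Prkci averaged 25.8, Prkcd 21.8 and Prkcz 20.2 normalized counts per M per kb, and Prkcd was then above Prkcz in 8 of 10 libraries and below Prkci in 8 of 10. Which transcripts the cells make is not measured, so the places of Prkcz and Prkcd are not settled. The gap between these 3 and Prkca, Prkce and Prkch held with both lengths.

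**Figure D1:**
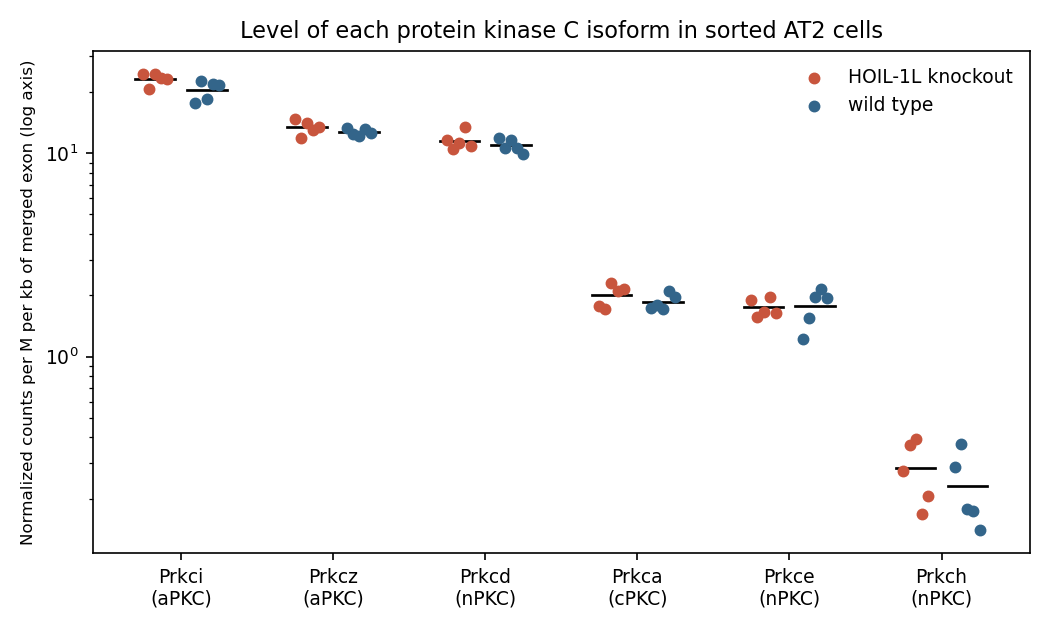
Normalized counts per M per kb of merged exon on a log axis for the 6 tested isoforms, with 1 point per library and the group mean as a bar, HOIL-1L knockout left of wild type. Prkci, Prkcz and Prkcd lie at 9.88 or above in all 10 libraries and the other 3 isoforms at 2.31 or below, while Prkcb, at 0 in 6 libraries, is not drawn.

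The atypical pair made up most of the summed PKC level. Per kb of merged exon, Prkci and Prkcz together took 70.2% ± 1.76 in knockout and 69.1% ± 2.28 in wild type (SD, n = 5 each), the nPKC isoforms 25.9% ± 1.80 and 27.0% ± 2.38, and the conventional isoforms 3.85% ± 0.396 and 3.88% ± 0.236. With the longest coding transcript as length the atypical share was 59.9% to 65.4% over the 10 libraries. The ratio of Prkcz to Prkci, both per kb of merged exon, was 0.577 ± 0.0167 in knockout and 0.629 ± 0.0805 in wild type (SD, n = 5 each). Single knockout libraries lay between 0.556 and 0.602 and wild type libraries between 0.551 and 0.754, the highest being wild type 2, so the groups overlapped. In the 8 libraries the ratio was 0.571 ± 0.0102 in knockout and 0.598 ± 0.0465 in wild type, and the aPKC share was 69.9% ± 1.85 in knockout and 69.7% ± 2.26 in wild type (SD, n = 4 each). These shares and ratios are descriptions without a test.

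The comparison of knockout with wild type asked whether loss of HOIL-1L moves the RNA of any isoform. No isoform passed adjustment over all genes, and as labelled neither did Rbck1, the targeted gene (limma adjusted p = 0.580). With all 10 libraries 0 of the 6 tested isoforms passed an adjusted p of 0.05 (limma, Benjamini-Hochberg over 12946 genes), where 0% of all genes tested passed. At an unadjusted p under 0.05 there was 1 isoform, Prkci, beside 9.48% of all genes. The log2 fold changes of Prkci, Prkcz, Prkcd, Prkca and Prkch were between 0.07 and 0.24, and that of Prkce was 0.01, or -0.00025 with TMM scaling. The median of the 6 was 0.09, beside a median of 0.01 over all genes. The groups were free of overlap for 0 of the 6 isoforms, beside 1.59% of all genes. For 5 of the 6, all except Prkch, the 95% interval of the fold change lay within 1.5-fold either way.

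Prkcz encodes the atypical kinase named in the series title (chromosome 4, mm10, 155260129 to 155361361, minus strand, protein coding, ENSMUSG00000029053). It stood at 93.0, 75.4, 89.0, 82.1 and 84.9 per M in knockout 1 to 5 and at 83.8, 78.6, 76.7, 83.1 and 79.9 per M in wild type 2 to 6. Knockout libraries held both the highest and the lowest value, and the wild type range lay inside the knockout range. The log2 fold change was 0.07 ± 0.07 (SE), with a limma adjusted p of 0.751. Prkcz was also the isoform that varied least, with a coefficient of variation of 6.59% over the 10 libraries. In the 8 libraries it came to 0.06 on the log2 scale, with a 95% interval of -0.10 to 0.22 (limma adjusted p = 0.794). It was 0.07 in the first run alone and 0.06 in the second, and the difference between the runs, the interaction term, was -0.01 ± 0.14 (SE, limma adjusted p = 0.994).

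Prkci encodes PKC iota, the other atypical kinase, a partner of PAR6 and PAR3 in epithelial polarity (chromosome 3, mm10, 30995747 to 31052959, plus strand, ENSMUSG00000037643). It stood at 136, 115, 137, 130 and 129 per M in knockout 1 to 5 and at 97.6, 125, 102, 121 and 121 per M in wild type 2 to 6. Of the 5 knockout libraries 4 lay above every wild type library, and knockout 2 lay within the wild type range. The log2 fold change was 0.19 ± 0.08 (SE), the largest relative to its error among the isoforms, and its 95% interval was 0.02 to 0.36. It did not pass over all genes (limma adjusted p = 0.490). In the 8 libraries, which lack wild type 2, the lowest of all, it came to 0.12 with an interval of -0.05 to 0.30 (limma adjusted p = 0.541). It was 0.22 in the first run and 0.18 in the second.

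Among the nPKC isoforms, Prkcd encodes PKC delta, which can act in apoptosis (chromosome 14, mm10, 30595354 to 30626210, minus strand). It stood at 64.4, 58.1, 62.2, 74.4 and 60.0 per M in knockout 1 to 5 and at 66.1, 58.5, 64.5, 58.8 and 54.8 per M in wild type 2 to 6. Knockout 4 was the highest library, and the other 4 knockout libraries lay inside the wild type range. The log2 fold change was 0.07 ± 0.08 (SE, limma adjusted p = 0.795). It was 0.10 in the 8 libraries, -0.016 in the first run alone, 0.17 in the second run alone and 0.02 without knockout 4.

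Prkce encodes PKC epsilon (chromosome 17, mm10, 86167785 to 86657919, plus strand). It stood at 13.8, 11.4, 12.0, 14.3 and 11.9 per M in knockout 1 to 5 and at 8.82, 11.2, 14.2, 15.6 and 14.1 per M in wild type 2 to 6. The wild type values split by run, with both first-run libraries below the 3 second-run libraries. The log2 fold change was 0.01 ± 0.14 (SE, limma adjusted p = 0.990) over all libraries, 0.30 in the first run alone and -0.16 in the second, and the interaction term did not pass (-0.46 ± 0.23, SE, limma adjusted p = 0.860). Its direction is therefore not given. Of the merged exons of Prkce, 472 bases are shared with AC154542.1, an annotated transcript on the same strand that has no row of its own here.

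Prkch encodes PKC eta, which is found in epithelia (chromosome 12, mm10, 73584796 to 73778185, plus strand). It stood at 2.06, 2.77, 2.96, 1.26 and 1.55 per M in knockout 1 to 5 and at 2.15, 2.80, 1.34, 1.31 and 1.05 per M in wild type 2 to 6. In both groups the libraries of the first run were the higher ones. The log2 fold change between genotypes was 0.24 ± 0.26 (SE, limma adjusted p = 0.795), and 0.09 ± 0.20 (SE, limma adjusted p = 0.878) with the run as a covariate. The 95% interval ran from -0.31 to 0.80 without that covariate, past 1.5-fold, and from -0.33 to 0.52 with it, within 1.5-fold either way. Without wild type 2 and knockout 1 the log2 fold change was 0.31.

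Among the conventional isoforms, Prkca encodes PKC alpha (chromosome 11, mm10, 107933387 to 108343928, minus strand). It stood at 15.9, 15.4, 20.8, 18.8 and 19.3 per M in knockout 1 to 5 and at 15.5, 16.0, 15.3, 18.8 and 17.6 per M in wild type 2 to 6. Knockout 3 and 5 were the highest, knockout 4 equalled wild type 5 to 3 digits, and knockout 1 and 2 lay at the level of the lowest wild type libraries. The log2 fold change was 0.11 ± 0.11 (SE, limma adjusted p = 0.773), and 0.13 in the 8 libraries.

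Prkcb encodes PKC beta, which is known from lymphocytes and myeloid cells (chromosome 7, mm10, 122288751 to 122634402, plus strand). It was listed at 0.252 per M in knockout 1 and at 0 in knockout 2 to 5, and at 0.106, 0.0857, 0, 0 and 0.0705 per M in wild type 2 to 6. If the lowest values are single reads, 1 read was worth 0.0726 to 0.127 per M, and all 10 values are those of 3 reads or fewer. A difference could not be detected at this depth (p = 1 in the same two-sided exact permutation test). Markers of cells that could carry it differed in level. The T and NK cell list had 7 of 10 genes in the table and 1 past the filter, with Trac at 0 in all libraries and a summed level of 4.08 to 7.86 per M in knockout and 4.41 to 8.32 in wild type. The B cell list had 3 of 7 genes in the table and 1 past the filter, summing to 16.4 to 27.7 per M in knockout and 17.5 to 31.4 in wild type. The macrophage and monocyte list had 6 of 10 genes past the filter and summed to 29634 to 39750 per M in knockout and 32794 to 40952 in wild type, with Ptprc, Marco and Itgam below the filter. A summed level does not show how many cells of a type were present, since other cells can express single genes of a list. The part of such cells in these values was not tested.

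**Figure D2:**
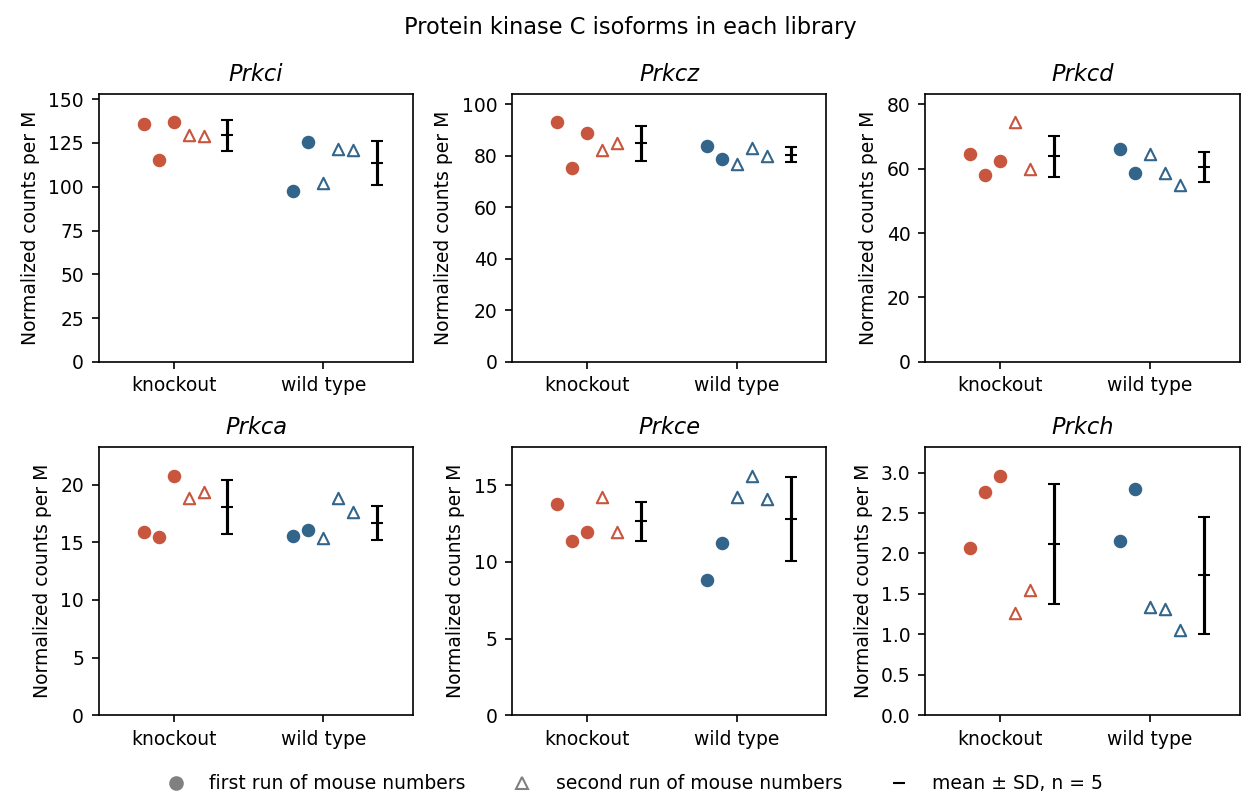
Normalized counts per M in each library for the 6 tested isoforms, knockout left of wild type, with filled circles for the first run of mouse numbers, open triangles for the second, and mean ± SD (n = 5) beside each group. The groups overlap for every isoform, and for Prkch all circles (2.06 or above) lie above all triangles (1.55 or below).

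In the 8 libraries the result was the same for the isoforms. Of the 6 tested, 0 passed adjusted over all genes, beside 0.402% of all genes, with a smallest member adjusted p of 0.541 (limma). At an unadjusted p under 0.05 there were 0 isoforms, beside 13.1% of all genes, and for 0 were the groups free of overlap, beside 6.71% of all genes. Of the 6 log2 fold changes 5 were above 0 and Prkce was at -0.15, with a median of 0.11, beside 50.1% of all genes above 0.

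**Figure D3:**
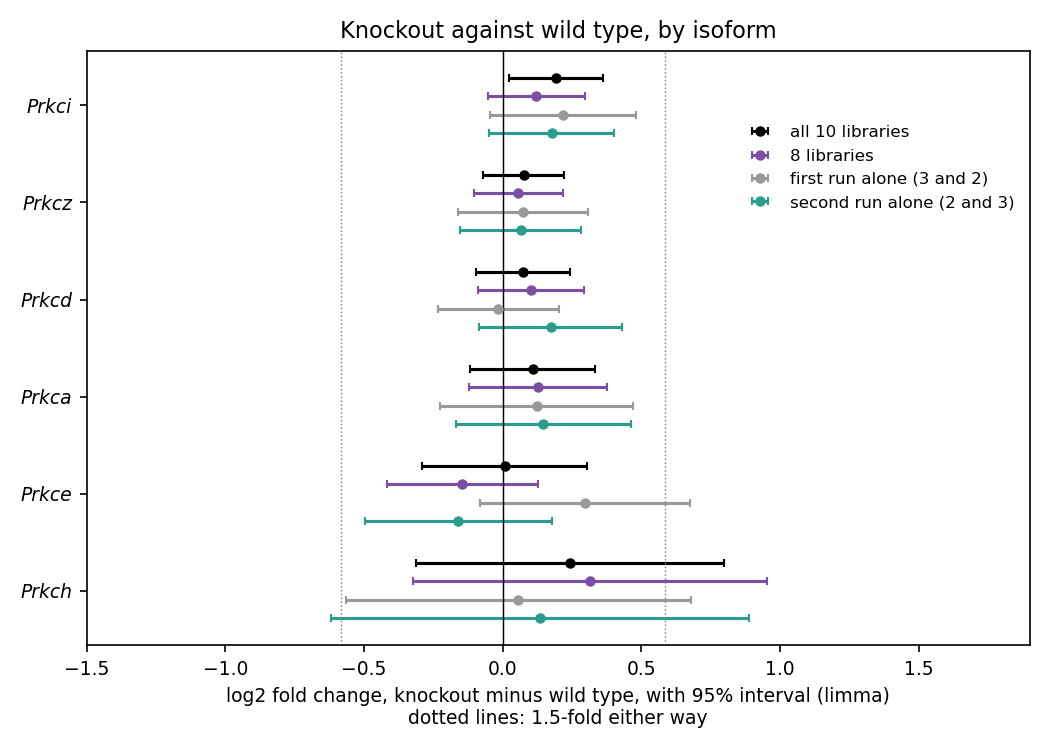
Limma log2 fold changes, knockout minus wild type, with 95% intervals for the 6 tested isoforms in all 10 libraries, in the 8 libraries, and in each run alone (numbers of knockout and wild type libraries in the legend). The interval of Prkcz runs from -0.07 to 0.22 in all 10 libraries, inside the dotted lines at 1.5-fold, and that of Prkch from -0.31 to 0.80.

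Between the runs of mouse numbers, Prkch had the largest difference among the 6 isoforms. It lay at 1.05 to 1.55 per M in the 5 second-run libraries and at 2.06 to 2.96 per M in the 5 first-run libraries, without overlap, which held for 2.85% of all genes. With genotype in the model the log2 difference, second minus first, was -0.73 ± 0.20 (SE) and did not pass over all genes (limma adjusted p = 0.0998). In the 8 libraries it was -0.87 (limma adjusted p = 0.184). Prkce lay the other way, at 14.0 ± 1.33 per M in the second run and 11.4 ± 1.79 in the first (SD, n = 5 each), with a log2 difference of 0.31 ± 0.12 (SE, limma adjusted p = 0.241). The log2 differences of the other 4 isoforms were between -0.03 and 0.13. Of the 6 isoforms 0 passed, beside 0.626% of all genes, and 2 had an unadjusted p under 0.05, beside 15.8% of all genes.

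The endothelial and the T and NK cell sums, from lists with few genes past the filter, overlapped between the runs. Which cells carry Prkch was not tested. The endothelial list, with 5 of 7 genes in the table and 2 past the filter (Pecam1, Cdh5 and Vwf were below it), summed to 9.83 to 15.6 per M in the second run and 10.4 to 14.0 per M in the first. The T and NK cell list summed to 4.41 to 7.86 per M in the second run and 4.08 to 8.32 per M in the first. Fewer cells of a type and less RNA per cell cannot be told apart in such bulk samples.

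Between isoforms, 15 pairs were compared over the 10 libraries on the log2 scale, and 0 passed after Benjamini-Hochberg adjustment over the pairs. Prkca and Prkci had a Pearson r of 0.63 (permutation p = 0.0491, adjusted 0.368) and a Spearman rho of 0.73 (permutation p = 0.0193, adjusted 0.152). Without the 2 libraries farthest from the median of Prkca r was 0.49, and within the first and second run it was 0.56 and 0.96 over 5 libraries each. Prkce and Prkch had an r of -0.64 (permutation p = 0.0409, adjusted 0.368) and a rho of -0.73 (permutation p = 0.0203, adjusted 0.152). Without the 2 libraries farthest from the median of Prkce r was -0.81. Within the first and second run r was 0.08 and -0.53 over 5 libraries each. So few libraries do not show whether the relation holds within a run. The atypical pair, Prkci and Prkcz, had an r of 0.55 and a rho of 0.62 (permutation p = 0.0982 and 0.0591, adjusted 0.491 and 0.296), with an r of 0.88 without the 2 libraries farthest from the median of Prkci and of 0.46 and 0.88 within the first and second run. The genes whose log2 values followed Prkcz most closely over the 10 libraries, out of all tested genes outside the family, were Senp7 (r = 0.94, rho = 0.93), Slc15a4 (r = 0.91, rho = 0.92) and Ap5m1 (r = 0.91, rho = 0.88), given without a p because they are the highest of all genes.

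The genes around PKC were described in 8 lists of 75 genes, of which 68 were tested. In all 10 libraries 0 of the 68 passed in either direction, beside 0% of all genes (limma, smallest adjusted p 0.359). At an unadjusted p under 0.05 there were 9, beside 9.48% of all genes. Of the 68, 41 had a log2 fold change above 0 (60.3%, beside 51.3% of all genes), and the median was 0.03. In the 8 libraries 0 of the 68 passed, beside 0.402% of all genes, and 39 were above 0, with a median of 0.02 (limma, smallest adjusted p 0.0720).

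Phospholipase C enzymes release diacylglycerol from membrane lipid, and diacylglycerol kinases remove it again. Of 10 phospholipase C genes tested 8 were above 0 and 0 passed (median 0.14), with Plch1 at 0.45 ± 0.17, Plcg1 at 0.20 ± 0.08 and Plch2 at 0.35 ± 0.16 as log2 fold changes (SE). Of the 10, 6 were above 0 in the 8 libraries (median 0.18), where Plch2 was at 0.56 ± 0.14 (SE, limma adjusted p = 0.104). Plcg1 stood at 159 ± 16.9 per M in knockout and 138 ± 10.5 in wild type (SD, n = 5 each). Of 7 diacylglycerol kinase genes tested 6 were above 0 and 0 passed (median 0.08), with Dgkq at 0.24, Dgkh at 0.30 and Dgka at 0.08. Of the 7, 4 were above 0 in the 8 libraries (median 0.03), where Dgka was at 0.13. Other proteins that bind diacylglycerol, 7 genes tested, had a median of 0.08, with Unc13b at 0.16, Chn2 at 0.39 and Rasgrp2 at 0.24, and 0 passed. These 3 genes were at 0.09, 0.18 and 0.16 in the 8 libraries, and the median was 0.09.

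New PKC protein is folded with HSP90, phosphorylated by PDK1 and with the help of mTORC2, and dephosphorylated by PHLPP phosphatases. Of 11 such genes tested 0 passed and 6 were above 0 (median 0.01). Mtor, the kinase of that complex, stood at 74.7 ± 4.87 per M in knockout and 65.7 ± 4.68 in wild type (SD, n = 5 each, log2 fold change 0.18 ± 0.07 SE, limma adjusted p = 0.450). Phlpp2 had a log2 fold change of 0.32 and Hsp90aa1 one of -0.15. Of the 11, 5 were above 0 in the 8 libraries (median -0.02).

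Partners of atypical PKC, which include the PAR polarity proteins and the inhibitor PAR-4 (Pawr), had 12 genes tested, 8 above 0 and 0 passing (median 0.05). Pawr stood at 27.9 ± 6.54 per M in knockout and 21.2 ± 3.55 in wild type (SD, n = 5 each), and its log2 fold change was 0.37 ± 0.16 (SE, limma adjusted p = 0.487) in all libraries and 0.57 ± 0.13 (SE, limma adjusted p = 0.0720) in the 8. Llgl2, a polarity protein that atypical PKC phosphorylates, had a log2 fold change of 0.15 ± 0.06 and Pard6a, the PAR6 adaptor, one of -0.29 ± 0.15 (SE). Of the 12, 7 were above 0 in the 8 libraries (median 0.04).

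Anchors and scaffolds, which hold PKC near its targets, had 6 genes tested, of which 1 was above 0 (median -0.05). That gene, Akap13, stood at 225 ± 15.6 per M in knockout and 185 ± 31.8 in wild type (SD, n = 5 each, limma adjusted p = 0.359). Rack1 had a log2 fold change of -0.17 ± 0.09 and Akap5 one of -0.32 ± 0.18 (SE). Substrates had 9 genes tested and 3 above 0 (median -0.05), with Rdx at 0.15, Pebp1 at -0.14 and Marcks at -0.25. The related kinases of the PKN and PKD families had 6 genes tested and 5 above 0 (median 0.12), with Pkn3 at 0.45, Prkd1 at 0.28 and Pkn2 at 0.17. In each of these 3 lists 0 genes passed. Those above 0 in the 8 libraries were 2 of the 6 anchors and scaffolds (median -0.06), 4 of the 9 substrates (median -0.01) and 6 of the 6 related kinases (median 0.10). The other subunits of the ligase, Rnf31 and Sharpin, overlapped between the groups. Rnf31 lay at 27.4 to 31.8 per M in knockout and 20.4 to 31.8 in wild type, and Sharpin averaged 20.8 ± 1.31 per M in knockout and 19.7 ± 1.65 in wild type (SD, n = 5 each).

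**Figure D4:**
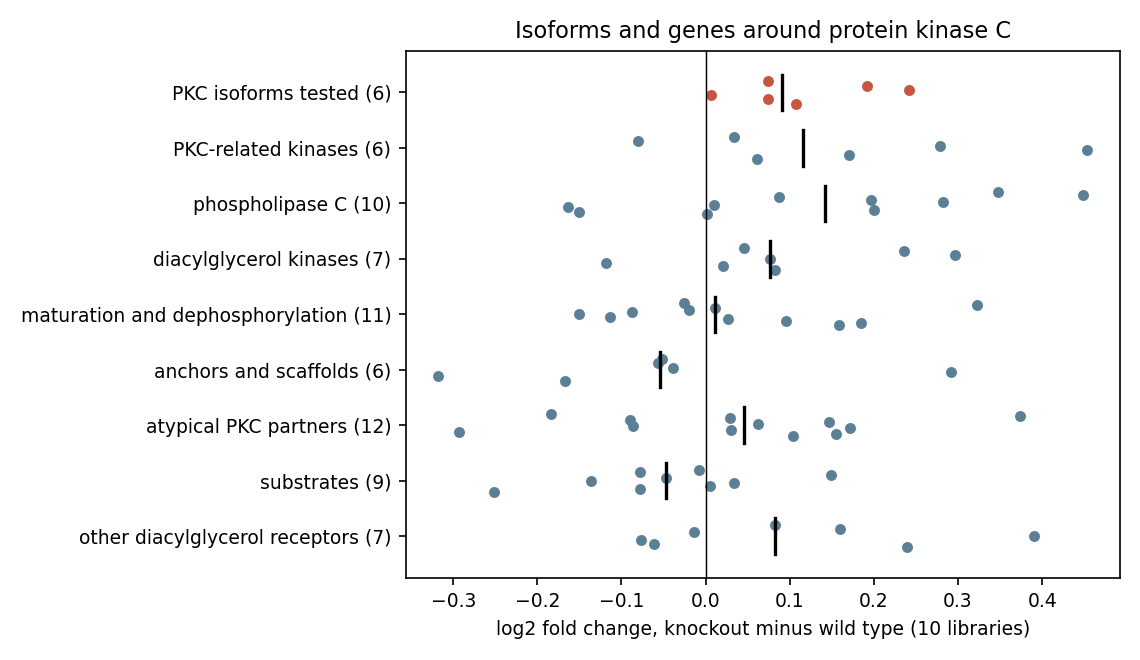
Log2 fold changes, knockout minus wild type, in all 10 libraries for the 6 tested isoforms and the tested genes of 8 lists around PKC (numbers in brackets), with the median of each list as a bar. Medians lie between -0.05 and 0.14, and 0 of the genes passed.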

How the data were processed

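Per the labels, NEBNext Ultra libraries of polyadenylated RNA were read on a NextSeq instrument. Tools named in the submitters' processing notes are bcl2fastq 2.17 and edgeR 3.14.0, with build mm10, while the aligner, annotation, strand setting and kind of normalization were not given in the sources used here. Normalized counts were what the authors deposited, treated as a signal that is never negative, with column totals of 6.94 to 7.43 M. The table was divided by the mean total (7.14 M). Genes at 1 per M or more in at least 5 libraries (12946) were tested with limma-trend (limma 3.58.1, R 4.3.3) on log2(value per M + 0.5), knockout minus wild type, two-sided, with Benjamini-Hochberg adjustment over all of them. Fold changes on this scale understate those of low genes. Gene coordinates and exon lengths come from GENCODE M21. Each library was taken as 1 mouse, a reading of the letter M and the number in its title. The fits were tested on simulated data. The members and lists were chosen with earlier results of these data known. Alternatives were pseudocounts of 0.1 and 2, no filter or one at 5 per M, other scalings (trimmed-mean TMM factors computed from the method's formula, median ratios, equal totals), the run as a covariate or each run alone, the replicate number as a block, and leaving out each library. Named genes are the members, Rbck1, Rnf31, Sharpin, the 3 smallest p of each list and the 3 genes most like Prkcz; markers named as low or at 0 were added after their values were seen.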

Additional observations from a re-analysis of the deposited data

Results flagged for a closer look

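Over 16 groups of 5 libraries, 1 for each measured isoform and for Rbck1 in each genotype, 2 held a library far from the other 4, and chance marks about 1 group in 20 (Dixon's test). Among the knockout libraries Prkcb was highest in knockout 1, at 0.252 per M, a value of a few reads, with the other 4 at 0. With 4 values tied at 0 any value above 0 is marked, so the rate of 1 in 20 does not apply to it. Among the wild type libraries Rbck1 was lowest in wild type 2, at 29.7 per M, with the others between 56.1 and 57.8. The log2 effect of the knockout was also compared between the runs by an interaction term. Among the 6 isoforms its smallest p was that of Prkce (limma, unadjusted p = 0.0622, adjusted p = 0.860).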

How the results depend on the processing

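Under all alternatives 0 isoforms passed in either comparison, and the smallest adjusted p of an isoform between genotypes was 0.148. The number of genes called between genotypes, 0 as labelled, was 1 with the run as a covariate, 41 in the second run alone, 52 in the 8 libraries, 70 in the 8 libraries with the run as a covariate, and 0 to 4 when 1 library was left out (4 without knockout 1). Replicate numbers 2 to 5 occur in both groups. With them as a block 259 genes passed, and 22 in the same libraries without it. Correlations of deviations were 0.06 to 0.27 for same-numbered libraries and -0.32 to 0.23 for the others. Not every library correlated best with its own number. Same-numbered libraries also share a run, so the block takes up the run as well, and the others include pairs from different runs. Within a run, differently numbered libraries correlated at -0.04 to 0.23, which overlaps the same-numbered range. These values do not settle whether the numbers mark pairs, and the main comparison was left unpaired. Of 143 alternative values of the 6 isoforms 134 kept their direction. With 1 library left out the genotype log2 fold change ran from 0.14 to 0.23 for Prkci, 0.04 to 0.12 for Prkcz, 0.02 to 0.11 for Prkcd, 0.06 to 0.16 for Prkca and 0.13 to 0.40 for Prkch. The exceptions were Prkcd in the first run (-0.016) and Prkce with TMM factors (-0.00025), in the second run (-0.16), in the 8 libraries (-0.15, and -0.084 with the run as a covariate) and without knockout 1 or 4 or wild type 2 or 3 (-0.11 to 0.083 over single libraries left out). The difference of Prkcb was -0.14 to 0.013 when 1 library was left out. Rbck1 did not pass as labelled (limma adjusted p = 0.580), and passed at a log2 fold change of -0.56 in the second run alone. In the 8 libraries it passed at -0.67 and -0.64 without and with the run. Those libraries were chosen by their Rbck1 values, so its passing there follows from the choice. Between runs, 81 genes passed, 51 with a filter at 5 per M, 28 in the 8 libraries, and 18 to 139 when 1 library was left out (139 without knockout 1, 43 without knockout 4, and 18, 44, 23 and 28 without wild type 2, 3, 5 and 6). There Prkcz turned to 0.013 with equal totals and 0.026 in the 8 libraries, Prkci to -0.032 in the 8 libraries, and with 1 library left out Prkci ran from -0.048 to 0.091 and Prkcd from -0.057 to 0.079. The filter at 5 per M gave no value for Prkch. With the longest coding transcript as length, levels per kb were 25.8 for Prkci, 21.8 for Prkcd, 20.2 for Prkcz, 2.04 for Prkce, 0.543 for Prkch and 0.0177 for Prkcb. The cause of these differences was not tested. Depth limits Prkcb.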
